A study of Homo sapiens with 20 samples.

Results

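The genes described here are 10 cytosolic aminoacyl-tRNA synthetases, taken by their identifiers from the 19962 genes of the count table: EPRS1, MARS1, IARS1, LARS1, GARS1, WARS1, SARS1, NARS1, AARS1 and TARS1. All 10 were found. They were followed in PAR-CLIP libraries of the RNA-binding protein IGF2BP3, a method in which 4-thiouridine built into RNA is crosslinked to bound protein by ultraviolet light and crosslinked sites are read as T-to-C conversions. All groups shared a Tet-OsTIR1-PURO derivative of HCT116, an established line from a human colorectal carcinoma, and 4-thiouridine was supplied at 100 µM over 15 h. Stress of the endoplasmic reticulum came from TM (tunicamycin), which stops N-linked glycosylation, with exposures of 1 h and 4 h at a dose of 5 µg/mL, set against a 4 h DMSO control. Oxidative stress came from 2 h with 250 µM arsenite, set against 2 h with PBS. The sample titles say arsenite where the treatment labels say arsenate. Each of the 5 conditions had 3 anti-IGF2BP3 libraries and 1 control IgG library, 20 in all.

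Aminoacyl-tRNA synthetases join each amino acid to its tRNA and so supply the ribosome. Several of them sit together in the multi-synthetase complex of the cytosol, while others work as free enzymes. Many cytosolic synthetase genes are textbook targets of ATF4, a transcription factor of the integrated stress response that acts through C/EBP-ATF response elements, and both endoplasmic reticulum stress and arsenite are known triggers of that response. IGF2BP3 is an oncofetal protein that binds messenger RNA.

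Summed over genes, the anti-IGF2BP3 libraries held between 130478 counts (PBS replicate 2) and 1568406 counts, and the IgG libraries between 5981 and 17503. The 10 genes took between 0.0785% and 0.153% of the counts of an anti-IGF2BP3 library. Clusters lay in all 5 epithelial marker genes (EPCAM, CDH1, KRT8, KRT18 and KRT19), and none lay in PTPRC, CD3E, COL1A1 or PECAM1, which mark other cell types. The labels do not say that replicates were separate cultures, so p-values measure the spread between these libraries, which may be technical. RNA abundance was not analysed here. A change is therefore one in recovered RNA, and more RNA per cell and more binding of it cannot be told apart.

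Under arsenite, 7 of the 10 genes rose against PBS, namely all 4 partners of the multi-synthetase complex and the free enzymes GARS1, WARS1 and TARS1. Against this, 17.6% of the 6642 genes tested rose. The median log2 change of the 10 genes was 0.82, and that of all genes tested was −0.00. After 4 h of TM, 3 of the 10 rose against DMSO (MARS1, WARS1 and IARS1), where 2.79% of 8343 genes rose. All 10 had a positive log2 change at 4 h, as 50.5% of all genes did, with a median of 0.53 against 0.00 over all genes. After 1 h of TM, 0 of 10 were called in either direction by edgeR's quasi-likelihood test and 0 by DESeq2, where 0.551% of genes were called by edgeR. At an unadjusted p under 0.05, IARS1 alone, 1 of 10, passed at 1 h, where 9.66% of genes did. Both TM comparisons share the DMSO libraries.

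**Figure D1:**
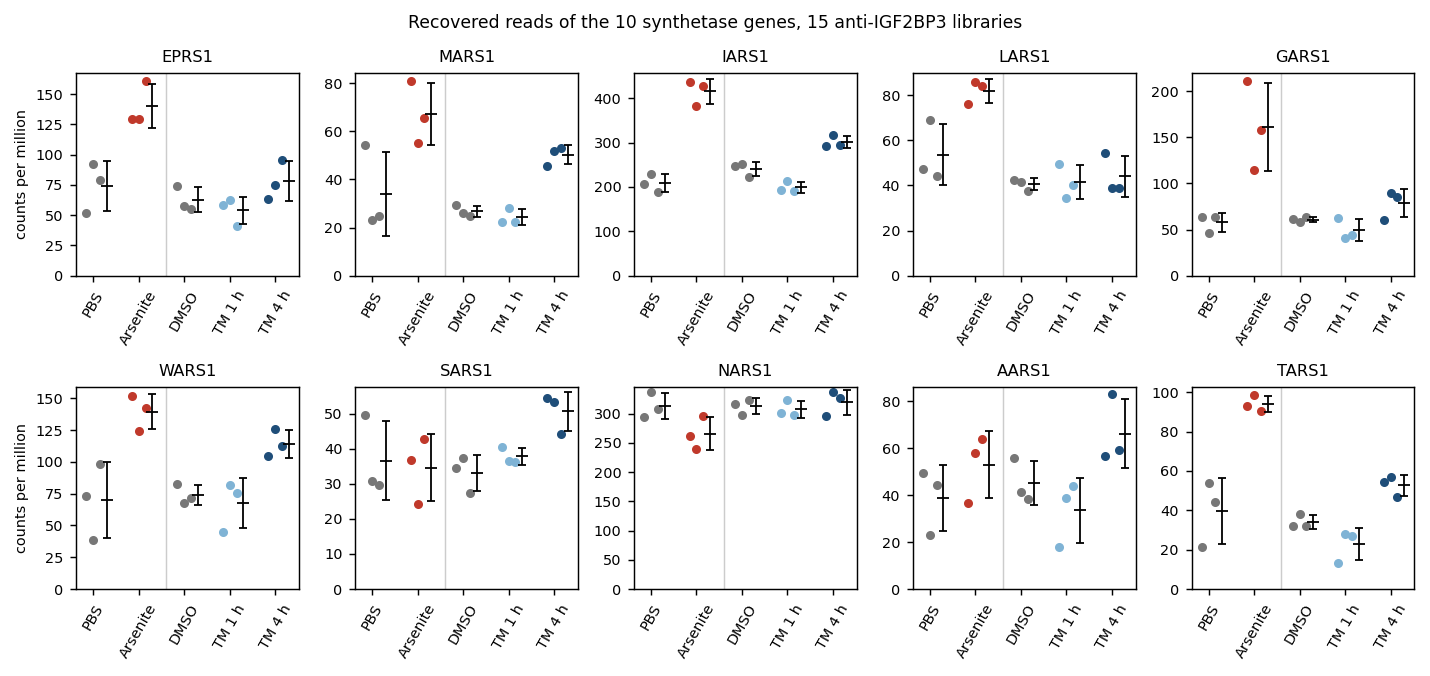
CPM (linear axis from 0) of each gene in every anti-IGF2BP3 library, as points by condition, with mean and SD of 3 libraries beside them. IARS1 sits between 383 and 436 CPM under arsenite and between 189.7 and 230.3 CPM in PBS, while NARS1 stays between 239 and 338 CPM in all conditions.

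Among the complex partners, IARS1 charges isoleucine tRNA. Levels are given as CPM, counts per 1000000 counts of the library, scaled over the 15 anti-IGF2BP3 libraries with TMM factors. IARS1 (ENSG00000196305) had 208, 230.3 and 189.7 CPM in PBS and 436, 383 and 426 under arsenite. The groups did not overlap, and the log2 change was 1.03 (SE 0.12, adjusted p = 6.0e-13). In DMSO IARS1 had 247, 253 and 224 CPM, after 1 h of TM 193, 213 and 191, and after 4 h 291, 318 and 295. The TM 1 h values all lay below DMSO and the TM 4 h values all above it. The log2 change was −0.27 at 1 h (SE 0.12, adjusted p = 0.40) and 0.33 at 4 h (SE 0.10, adjusted p = 0.032). From low to high, the mean levels ran TM 1 h, PBS, DMSO, TM 4 h and arsenite, and the PBS values overlapped those of both neighbours.

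MARS1, the methionine enzyme that also charges the initiator tRNA, had the largest TM 4 h change of the 10. Its values were 29.3, 25.9 and 25.0 CPM in DMSO and 45.7, 51.9 and 53.0 CPM after 4 h of TM. The groups did not overlap, with a log2 change of 0.97 (SE 0.23, adjusted p = 0.0031) for MARS1 (ENSG00000166986), which was rank 84 from the top of 8343 genes. After 1 h it had 22.5, 28.0 and 22.3 CPM, overlapping DMSO. Under arsenite MARS1 had 80.8, 55.0 and 65.6 CPM against 54.2, 23.0 and 24.6 in PBS, a log2 change of 0.81 (SE 0.29, adjusted p = 0.018). All 3 arsenite values lay above the highest PBS value, but by only a small margin. Without PBS replicate 3 this adjusted p was 0.26, and without arsenite replicate 1 it was 0.059.

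EPRS1, which joins glutamate and proline to their tRNAs in 1 protein, had 51.9, 92.1 and 78.8 CPM in PBS and 129.8, 129 and 161 CPM under arsenite. These did not overlap, and the log2 change was 1.07 (SE 0.20, adjusted p = 6.5e-06). In the TM series EPRS1 averaged 62.7 ± 10.3 CPM in DMSO, 53.9 ± 11.4 at 1 h and 78.1 ± 16.7 at 4 h (SD, n = 3 each). Its 4 h values overlapped DMSO (log2 change 0.48, SE 0.18, adjusted p = 0.11). LARS1, the leucine enzyme that is also known as a leucine sensor, had 47.2, 69.1 and 44.3 CPM in PBS and 75.9, 85.7 and 83.8 CPM under arsenite. Its log2 change was 0.75 (SE 0.25, adjusted p = 0.011), with no overlap. Without PBS replicate 1 or 3 the adjusted p was 0.071 or 0.087. In the TM series LARS1 averaged 40.5 ± 2.64 CPM in DMSO, 41.3 ± 7.54 at 1 h and 44.0 ± 8.98 at 4 h (SD, n = 3 each), and these groups overlapped.

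Of the free enzymes, GARS1 and TARS1 had the largest arsenite changes of the 10 genes. GARS1 (ENSG00000106105), the glycine enzyme of cytosol and mitochondria, had 63.7, 46.1 and 64.0 CPM in PBS and 211, 115 and 158 CPM under arsenite. Its log2 change was 1.35 (SE 0.21, adjusted p = 3.3e-08), and arsenite replicate 1 was the highest library. In DMSO GARS1 had 61.2, 58.0 and 63.3 CPM, after 1 h of TM 62.9, 40.9 and 43.8, and after 4 h 60.9, 89.5 and 85.4. The 4 h libraries overlapped DMSO through replicate 1, and the log2 change of 0.42 (SE 0.17, adjusted p = 0.16) did not pass. TARS1, the threonine enzyme, had 21.2, 53.7 and 44.3 CPM in PBS and 93.1, 98.6 and 90.2 CPM under arsenite. The arsenite libraries lay close together and far above PBS, with a log2 change of 1.39 (SE 0.26, adjusted p = 6.2e-06). In the TM series TARS1 had 31.9, 38.3 and 32.0 CPM in DMSO, 13.5, 28.0 and 27.0 at 1 h, and 54.4, 57.1 and 46.8 at 4 h. The 1 h values lay below all DMSO values and the 4 h values above them, but neither change passed the test, with a log2 change at 4 h of 0.58 (SE 0.22, adjusted p = 0.11).

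WARS1, the tryptophan enzyme, which is also known to be induced by interferon, rose in both stresses. It had 82.4, 67.3 and 71.9 CPM in DMSO, 44.9, 81.9 and 75.4 after 1 h of TM, and 104, 126 and 112 after 4 h. The 4 h libraries lay above DMSO without overlap, and the log2 change was 0.67 (SE 0.15, adjusted p = 0.0026). Under arsenite WARS1 had 152, 124 and 142.2 CPM against 73.1, 38.4 and 98.5 in PBS, a log2 change of 0.82 (SE 0.20, adjusted p = 0.00041). The spread of PBS was wide, with its lowest value in replicate 2, the shallowest library.

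NARS1, SARS1 and AARS1, which charge asparagine, serine and alanine, did not pass against either vehicle. NARS1 (ENSG00000134440) had 295, 338 and 308 CPM in PBS and 262, 239 and 296 CPM under arsenite, which overlapped. Its log2 change was −0.18 with a 95% interval from −0.41 to 0.06 under arsenite, and 0.05 with an interval from −0.14 to 0.23 after 4 h of TM. SARS1 averaged 36.6 ± 11.2 CPM in PBS and 34.6 ± 9.48 under arsenite, and 33.1 ± 5.13 in DMSO, 37.8 ± 2.28 at 1 h and 50.6 ± 5.52 at 4 h (SD, n = 3 each). The 4 h values of SARS1 (54.4, 53.2 and 44.3 CPM) lay above all DMSO values (34.6, 37.3 and 27.4 CPM), with a log2 change of 0.60 (SE 0.22, adjusted p = 0.10). AARS1 had 56.5, 83.1 and 59.2 CPM after 4 h of TM against 55.9, 41.4 and 38.3 in DMSO, and its log2 change of 0.64 (SE 0.20, adjusted p = 0.054) just missed the threshold. AARS1 averaged 39.0 ± 14.0 CPM in PBS and 52.9 ± 14.3 under arsenite (SD, n = 3), which overlapped.

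Counted by libraries alone, 7 of 10 genes had all arsenite values above all PBS values, where 22.8% of genes did. After 4 h of TM this held for 6 of 10 against DMSO (WARS1, SARS1, AARS1, MARS1, IARS1 and TARS1), where 10.4% of genes did. After 1 h, IARS1 and TARS1, 2 of 10, lay wholly below DMSO, where 7.74% of genes did.

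The direct test of the TM time points placed 7 of 10 genes higher at 4 h than at 1 h, where 5.60% of genes were higher. MARS1 (log2 difference 1.09), TARS1 (1.01), GARS1 (0.84), AARS1 (0.77), EPRS1 (0.74), WARS1 (0.66) and IARS1 (0.61) were the ones that passed. The lowest adjusted p was that of IARS1, 4.9e-05 (SE 0.11). SARS1 (0.40), LARS1 (0.07) and NARS1 (0.08) did not pass. All TM 4 h libraries lay above all TM 1 h libraries for 7 of 10 genes, where 14.0% of genes did. These 7 include SARS1, which did not pass the test, and leave out GARS1, whose time points overlapped.

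The TM calls changed with the tool and with the library set, in which replicates 1 and 2 form one set and replicate 3 another by library name. Against DMSO at 4 h, DESeq2 called 0 of 10 and replicates 1 and 2 alone called 0 of 10, and IARS1 kept its call only when TM 4 h replicate 1 was the library left out. Leaving out TM 4 h replicate 3 or DMSO replicate 3 left 1 called gene, WARS1. Between the time points, DESeq2 called 3 of 10 (GARS1, WARS1 and IARS1, with no adjusted p for MARS1 and TARS1), replicates 1 and 2 alone 4 of 10, and the fit without TM 1 h replicate 3 called 4. EPRS1 was at 0.21 (adjusted p = 0.77) with replicates 1 and 2, 0.51 (0.21) without TM 4 h replicate 3 and 0.45 (0.34) without TM 1 h replicate 3. AARS1 lost its call without TM 4 h replicate 2 (adjusted p = 0.14), TM 1 h replicate 1 (0.068) or TM 1 h replicate 2 (0.053). Under arsenite DESeq2 called 5 of 10, losing MARS1 and LARS1.

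**Figure D2:**
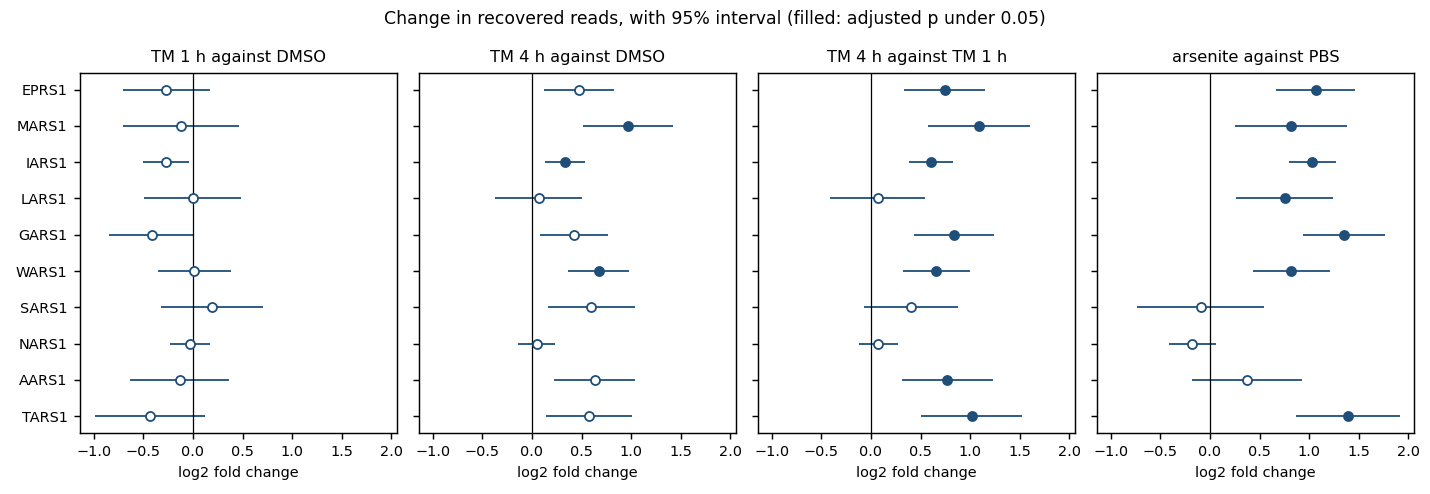
Log2 fold change (x axis) of each gene in 4 comparisons, with 95% intervals from edgeR's quasi-likelihood fit, filled where the adjusted p was under 0.05. Filled points number 0, 3, 7 and 7 from left to right, and NARS1 lies near 0 in every panel.

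The size of the stress responses was compared directly, each against its own vehicle. The arsenite change exceeded the TM 4 h change for 2 of 10 genes, where 8.57% of 7796 genes had a larger arsenite change. GARS1 had a difference of 0.92 on the log2 scale (SE 0.29, adjusted p = 0.015) and IARS1 one of 0.69 (SE 0.16, adjusted p = 0.00078). TARS1 (0.81, 95% interval 0.12 to 1.51), LARS1 (0.68, 0.03 to 1.32) and EPRS1 (0.57, 0.02 to 1.13) did not pass after adjustment. For MARS1 the difference was −0.16 with an interval from −0.91 to 0.58, and for SARS1 −0.70 with an interval from −1.47 to 0.08. Treatment times and library sets differed between the stresses and cannot be told apart from the agents. The difference for GARS1 missed the threshold without arsenite replicate 1 (adjusted p = 0.052).

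The IgG libraries held 61 counts of the 10 genes in all, with 0 to 6 per gene and library. Scaled by library totals, 0 of 10 genes differed between anti-IGF2BP3 and IgG libraries, where 1.31% of 7022 genes did, and DESeq2 also called 0. GARS1, at the low end, was −1.29 on the log2 scale (SE 0.55, unadjusted p = 0.020), the 1 gene of the 10 with an unadjusted p under 0.05, where 10.1% of genes had one. AARS1, at the high end, was 1.35 (SE 1.27). The direction changed with the scaling: the median of the 10 genes was −0.41 with library totals and 0.23 with TMM factors, and that of all genes was 0.09 and 0.71. With TMM factors 522 of all genes were higher than IgG, and 0 of the 10. The IgG cluster lists held 33 to 180 clusters each, 0 of them in the 10 genes, which is too few to compare the antibodies.

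The deposited clusters place the crosslinked reads within the genes. The 15 anti-IGF2BP3 lists held 447 clusters in the 10 genes, of 412123 in all. Most cluster reads of NARS1 (98.2%), AARS1 (89.5%) and WARS1 (84.0%) lay in regions that end within 1000 bases of the 3′ end of the RefSeq gene, and 65.4% of those of IARS1 and 62.6% of those of GARS1 did. The share was lower in EPRS1 (36.2%), SARS1 (8.78%) and MARS1 (0%). The 3 deepest leading regions were those of NARS1 at chr18:57601055-57601728 (minus strand, 2009 cluster reads, a cluster in 15 libraries), IARS1 at chr9:92210349-92210853 (minus strand, 1160 reads, 14 libraries) and SARS1 at chr1:109216888-109217132 (plus strand, 333 reads), all in GRCh38. Exons and untranslated regions were not annotated here. A stretch of 30 bases of the deepest cluster in each is shown on the strand of the RNA. It was taken from the authors' cluster lists, around the mode position given there. These regions are shown because they held the most cluster reads among the leading regions. Capitals mark a match to CATT or its variants with a final A or C, to ACACA, or to the letters GGAC, which are known from earlier work on IGF2BP proteins.
NARS1: tttcttaagttcgggaaacaaagttcgggg
IARS1: tgaagactgtgtatgtttctgtgttaccaa
SARS1: agtgaCATActttagagcagcactgtctga
The windows lie at chr18:57601420-57601449, chr9:92210824-92210853 and chr1:109217103-109217132. Of these windows, that of SARS1 alone holds one of the motifs. Over whole clusters, 66.0% of those in the 10 genes held CATT or a variant with a final A or C, and 64.0% of all clusters did. ACACA was in 16.1% of the genes' clusters and in 9.12% of all, GGAC in 11.9% and 13.6%, and CATC in 18.8% and 28.1%. The median length was 51 and 50 bases. Clusters of 1 region in several libraries share their sequence, so these shares rest on far fewer sites than clusters and are a description.

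SARS1 also had more cluster reads than gene counts. Its regions between chr1:109215245-109215322 and chr1:109217221-109217357, which start 1352 to 3328 bases after the 5′ end of the gene, held most of its clusters. The 15 libraries gave 854 cluster reads of SARS1 for 400 gene counts, or 213.5 cluster reads per 100 gene counts, where the ratio was 72.5 over all genes and between 15.5 (MARS1) and 85.3 (NARS1) in the other 9. At least part of the reads in its clusters was therefore not in its gene count. In clusters outside its leading region, SARS1 had 0, 45 and 79 reads in DMSO over 0, 314 and 551 covered bases. After 4 h of TM it had 13, 69 and 215 reads there over 76, 528 and 956 covered bases, so reads and covered length differed together.

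Under arsenite the clusters of IARS1 and GARS1 appeared along the length of the genes. IARS1 had clusters in 1, 0 and 1 regions in the PBS libraries, and in 7, 7 and 20 regions under arsenite. In DMSO it had 1, 4 and 5 regions, after 1 h of TM 1, 1 and 2, and after 4 h 3, 8 and 13. The arsenite libraries all lay above PBS, while the TM 4 h libraries overlapped DMSO. Depth does not match between these groups. Among libraries with similar numbers of clusters in all, arsenite replicate 1 (15648 clusters) had 7 IARS1 regions. PBS replicates 1 (16430 clusters) and 3 (15652 clusters) had 1 each. Reads on IARS1 itself were not matched there, with 178 gene counts in this arsenite library and 88 and 77 in these PBS libraries. Outside its leading region IARS1 had 0 cluster reads per 1000000 in all PBS libraries and 216 ± 64.8 under arsenite, 19.1 ± 16.5 in DMSO and 91.6 ± 26.7 after 4 h of TM (SD, n = 3). Within the leading region it had 66.3 ± 58.2 in PBS, 189 ± 28.3 under arsenite, 184 ± 48.9 in DMSO and 168 ± 11 after 4 h of TM. The TM 4 h and DMSO values for the leading region overlapped, whereas all TM 4 h values outside it lay above all DMSO values. GARS1 had 1, 0 and 1 regions in PBS and 5, 4 and 7 under arsenite. Cluster lists hold only what passed the caller, so 0 reads means no called cluster and not the absence of reads.

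**Figure D3:**
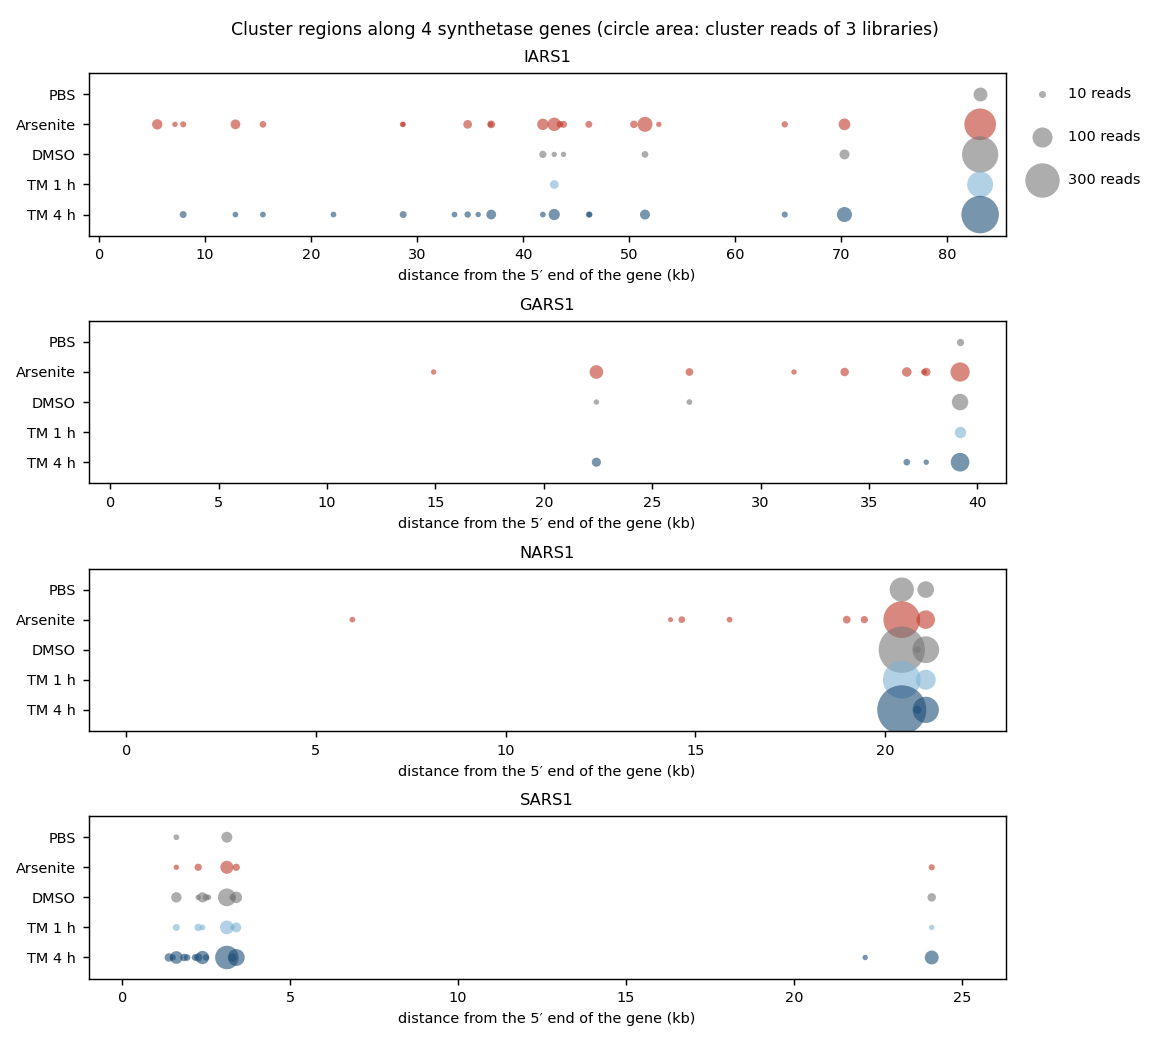
Positions of cluster regions in IARS1, GARS1, NARS1 and SARS1, as distance in kb from the 5′ end of the gene (x axis), by condition (y axis), with circle area proportional to cluster reads summed over 3 libraries. IARS1 and GARS1 show many regions away from the 3′ end under arsenite, NARS1 keeps its reads near the 3′ end, and those of SARS1 lie near the 5′ end.

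The share of cluster reads within 1000 bases of the 3′ end was 91.8 ± 8.45% in PBS and 57.1 ± 7.59% under arsenite for the 9 genes with a known strand (SD, n = 3 each, LARS1 left out). Over all such genes it was 41.2 ± 1.49% in PBS and 31.6 ± 0.87% under arsenite. It thus moved the same way in the whole data. For the 9 genes it was 84.4 ± 5.25% in DMSO, 88.2 ± 5.54% at 1 h and 72.6 ± 12% at 4 h of TM, and for all genes 38.5 ± 1.89%, 39.3 ± 1.23% and 37.3 ± 0.94%. The 9 genes' values in DMSO (90.1%, 83.3% and 79.8%) and after 4 h of TM (86.3%, 67.4% and 64.0%) overlapped. The share pools the reads of all 9 genes, so it also moves with the part each gene gives. NARS1, with 98.2% of its reads near the end, gave 216 cluster reads in PBS and 477 under arsenite. IARS1, with 65.4% there, gave 47 and 585. How much of the change came from this was not tested.

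Relative to all clusters, the 10 genes held 7.30, 5.59 and 8.94 clusters per 10000 in PBS and 17.9, 14.7 and 19.1 under arsenite. In DMSO they held 9.03, 7.49 and 8.30, after 1 h of TM 7.58, 8.14 and 7.10, and after 4 h 11.4, 12.8 and 10.6. Arsenite lay above PBS and TM 4 h above DMSO without overlap, and TM 1 h overlapped DMSO. In their clusters, conversions were 6.95 ± 0.17% of conversion and non-conversion events together in DMSO and 7.84 ± 0.11% after 4 h of TM, and 7.33 ± 0.84% in PBS and 8.63 ± 0.18% under arsenite (SD, n = 3 each). Over all clusters the shares were 7.83 ± 0.14%, 8.24 ± 0.52%, 8.01 ± 0.10% and 8.70 ± 0.10%, in the same order. Over all clusters every arsenite library lay above every PBS library, while TM 4 h overlapped DMSO, with 8.67%, 8.38% and 7.66% against 7.99%, 7.72% and 7.79%. The part of this in the counts of the 10 genes was not tested.

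**Figure D4:**
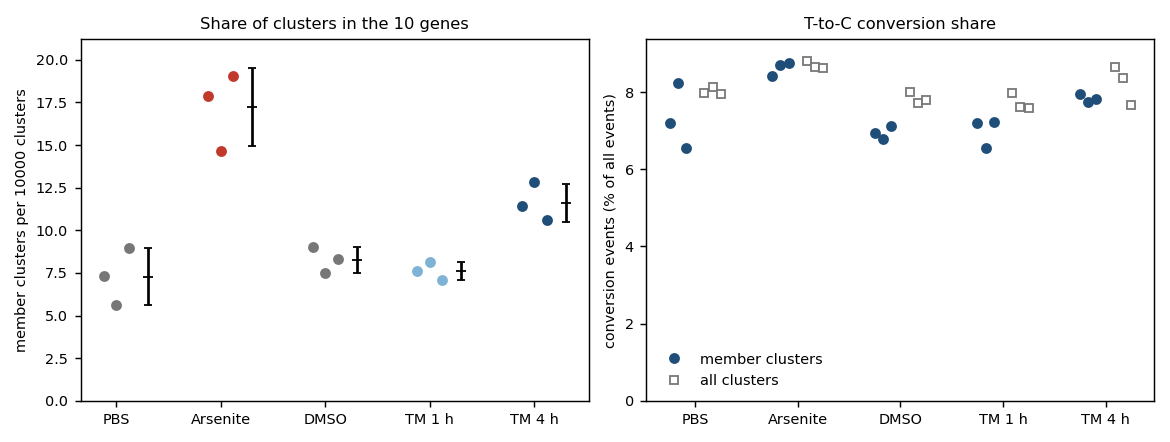
Left, clusters in the 10 genes per 10000 clusters of the library; right, conversion events as a percentage of all events, for clusters of the 10 genes (circles) and all clusters (squares), by condition, with points for libraries and bars for mean and SD on the left. The arsenite libraries lie at 14.7 or more clusters per 10000 and the PBS libraries at 8.94 or fewer.

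Regions called in every library of a comparison were few. At 1 h of TM 3 member regions could be tested and 0 were called, where 0% of 3609 regions were. At 4 h 4 could be tested and 0 were called, where 0.479% of 6054 were. The IARS1 leading region changed by −0.02 on the log2 scale at 4 h (95% interval −0.37 to 0.33), and GARS1 at chr7:30633851-30634023 by 0.37 (−0.27 to 1.00). Under arsenite only the NARS1 leading region could be tested and it was not called (0.28, −0.15 to 0.71), where 20.5% of 1830 regions were. Scaled by all cluster reads of the library, as for IARS1 above, the NARS1 leading region averaged 330 ± 100 in PBS. Under arsenite it averaged 239 ± 2.52 on that scale (SD, n = 3 each), which is lower. The sign for this region thus differed between the test and that scale, and no direction is drawn from it.

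The other synthetase genes could be followed only through cluster reads summed per RefSeq gene, since the reference table pairs no symbol with the identifiers of the counts. Results are given for FARSB, KARS1 and YARS1, cytosolic enzymes for phenylalanine, lysine and tyrosine with enough reads to test. In TM 0 of these 3 were called at 1 h, where 0% of 4685 genes were called, and 0 at 4 h, where 0.213% were. KARS1 had a log2 change of −0.54 (SE 0.52) at 1 h and 0.76 (SE 0.50) at 4 h, and YARS1 one of 0.32 (SE 0.31) at 1 h. Under arsenite 0 of these 3 were higher, where 9.17% of 2673 genes were, and KARS1 had 92 cluster reads in PBS and 460 under arsenite (log2 change 1.06, SE 0.36, adjusted p = 0.0998). Of the 10 genes, 5 could be tested in this way under arsenite. GARS1 and IARS1 were called higher, but a library with no called cluster in a gene entered as 0 reads. Per library, GARS1 had 6, 0 and 5 reads in PBS and 59, 38 and 123 under arsenite. IARS1 had 22, 0 and 25 in PBS and 98, 131 and 356 under arsenite. Both passed the filter on low counts only through their arsenite reads, so these calls are not taken as support for a rise. GARS1 had 11 reads over 66 covered bases in PBS and 220 over 1129 under arsenite, or 16.7 and 19.5 reads per 100 covered bases. IARS1 had 47 over 263 and 585 over 2562, or 17.9 and 22.8 reads per 100 covered bases. The difference in sums thus went with covered length. Sums of reads and of covered bases were not scaled for depth. The lists held 42699 to 244475 cluster reads each in PBS and 218140 to 828783 under arsenite. The scaffold protein AIMP1 of the complex was tested in TM only, with a log2 change of −0.14 at 1 h and 0.01 at 4 h, and AIMP2 and EEF1E1 had too few reads. None of the 17 mitochondrial synthetases listed had enough cluster reads to be tested.

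The gene promoters were searched for TGATGNAA, the core of the C/EBP-ATF response element, on both strands (TTNCATCA in reverse), from 250 bases before to 50 after each RefSeq start in GRCh38.p14. Of the 9 genes with a promoter in the table (LARS1 has no entry there), 6 held it, where 4.46% of 27305 genes did. Of 7 other cytosolic synthetases with an entry 1 held it (CARS1), of 14 mitochondrial ones 1 (YARS2), and of 3 scaffold genes 0. The matches are printed with 8 bases on each side, on the strand of the gene, because both genes that rose (GARS1, IARS1, MARS1 and TARS1) and genes that passed against neither vehicle (AARS1 and NARS1) hold them. Capitals mark the match.
AARS1: tctcgcagTTGCATCAgccaagtt
GARS1: cgcggcgaTTTCATCAtgctccga
IARS1: tcagcgcgTTGCATCAcctccgtg
MARS1: ggttccggTTGCATCAgcgaggga
NARS1: acgctctcTGATGCAAcgccggaa
TARS1: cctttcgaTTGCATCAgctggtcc
The match began 187 bases before a listed start in AARS1, 33 in GARS1, 13 in IARS1 and 4 in MARS1, and 14 after it in NARS1 and 2 after it in TARS1. The windows lie at chr16:70289678-70289701 (minus), chr7:30594837-30594860 (plus), chr9:92293695-92293718 (minus), chr12:57488056-57488079 (plus), chr18:57621807-57621830 (minus) and chr5:33440959-33440982 (plus). EPRS1 and WARS1, which rose under arsenite, have no such letters in these windows, and neither has SARS1. A match is a description of sequence and not a site of binding.

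Across the 15 anti-IGF2BP3 libraries, the log2 CPM of the 10 genes did not all run together. Over the 45 pairs, Pearson's r had a median of 0.48, and 12 pairs were below 0. GARS1 and IARS1 were the most alike (r = 0.88), and NARS1 and LARS1 the least (r = −0.64). The 4 other genes whose cluster reads ran most like the mean of the 10, of 1793 with a mean of at least 50 reads, were CNOT1 (r = 0.93), a scaffold of the deadenylase complex, CLTC (0.92), the clathrin heavy chain, FAM53C (0.89) and HERPUD1 (0.88), an endoplasmic reticulum protein induced by unfolded proteins. For these 4, cluster reads scaled by their totals were set against gene counts of the 10 scaled with TMM factors. The points share libraries and depth, and within the 45 pairs also the scaling. These values are a description.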

How the data were processed

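PAR-CLIP libraries of HCT116 cells were analysed from a deposited table of whole-number counts per gene and 1 deposited cluster list per library, whose position, sequence, read count and conversion event columns are named per the file headers. The submitters' processing notes name bcl2fastq 2.20.0.422, UMI-tools 1.1.1, Trimmomatic 0.30, Bowtie 0.12.7, featureCounts 2.0.1, GRCh38.p13 and hg38, with no order or setting. The cluster caller is not given in the sources used here, nor how reads shared with related genes or pseudogenes were counted. Clusters were called per library. The lowest read count in them was 2. The IgG lists of the PBS and arsenite set carry each other's names. The attachment of files to samples was followed, and no direction was drawn from them.

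Groups follow the labels. Gene counts entered edgeR 4.0.16 under R 4.3.3 (filterByExpr, TMM factors, quasi-likelihood test, two-sided, Benjamini-Hochberg over all genes tested, threshold 0.05). The TM groups shared 1 fit, PBS and arsenite another, and PBS, arsenite, DMSO and TM 4 h another for comparing both stresses. The IgG comparison used library totals with condition as a covariate. An SE is the log2 change divided by the square root of F. Clusters overlapping by 1 base on a strand were merged into regions. Each cluster was given to the RefSeq gene (GRCh38.p14) that held its midpoint on its strand, where only 1 did. Genes with no promoter entry, LARS1 and YARS1 among them, had no known strand and took clusters of both strands. Simulated data were drawn with 1 common spread for all genes, unlike the real genes. There, 2-fold changes were recovered in 68.5% of 200 changed genes for TM 1 h (8207 tested) and 77.5% for TM 4 h (8346). For arsenite 76.5% were recovered (6606) and for the difference 48.5% (7718). False calls in these runs numbered 6, 3, 9 and 2 in the same order, with 0 calls when nothing was changed. Smaller changes were not simulated. Alternatives were DESeq2 1.42.0, other scaling, no filter, other region rules, the replicate block and leaving out libraries.

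The 10 genes and all gene lists and motifs were chosen with earlier results of these data known. Named were all 10 genes, called or else the 2 most changed other synthetases, the leading region of each gene, sequences of the 4 with most reads there, and the 4 genes most alike. A sequence and a synthetase that this rule names are not reported here.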

Additional observations from a re-analysis of the deposited data

Results flagged for a closer look

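The changes in GARS1 and IARS1 differed between the stresses. Tested directly, the arsenite change minus the TM 4 h change was 0.92 on the log2 scale for GARS1 (SE 0.29, adjusted p = 0.015) and 0.69 for IARS1 (SE 0.16, adjusted p = 0.00078), in edgeR's quasi-likelihood fit, adjusted over all genes by Benjamini and Hochberg. For IARS1 the 3 arsenite libraries had 436, 383 and 426 CPM and the 3 TM 4 h libraries 291, 318 and 295, with similar vehicle means of 209 ± 20.4 in PBS and 241 ± 15.5 in DMSO (SD, n = 3 each). GARS1 averaged 161 ± 48.1 CPM under arsenite and 78.6 ± 15.5 after 4 h of TM, against 57.9 ± 10.3 in PBS and 60.8 ± 2.67 in DMSO. The agents, the hours of treatment and the library sets cannot be told apart.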

How the results depend on the processing

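Of 316 values of single genes under another tool, scaling, filter, block or library set, 300 kept their side of the threshold. A further 14 lost the call and 2 gained it, and 0 changed direction while called. Values that were not called could change sign, as WARS1 at TM 1 h did, with 0.013 in edgeR and −0.014 in DESeq2. Of 360 values with 1 library left out, 19 lost the call and 1 gained it. With DESeq2 the calls among the 10 genes were 0 for TM 4 h against DMSO and 3 between the TM time points, and with replicates 1 and 2 of the TM set alone they were 0 and 4. Over all genes, DESeq2 called 6 at TM 1 h, 151 at TM 4 h, 502 between time points, 1233 under arsenite and 854 for the difference of the stresses, where edgeR called 46, 426, 967, 2310 and 1427. Replicates 1 and 2 alone gave 16, 129 and 488 in the 3 TM comparisons. Against IgG, where edgeR with library totals called 92 genes, TMM gave 582 (522 higher, 60 lower), DESeq2 178 and no filter 156. With library totals AARS1 passed at TM 4 h (adjusted p = 0.043), and without the filter IARS1 did not (0.15).

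With 1 library left out, calls among the 10 genes ranged from 0 to 0 at TM 1 h, 1 to 3 at TM 4 h, 4 to 7 between time points, 5 to 7 under arsenite and 1 to 2 for the difference. Over all genes the ranges were 13 to 41, 178 to 431, 523 to 859, 1714 to 2392 and 1052 to 1377. Among regions the members' calls ranged from 0 to 0, 0 to 0 and, under arsenite, 0 to 2, and all regions from 0 to 5, 18 to 83 and 229 to 851 in TM 1 h, TM 4 h and arsenite. Under arsenite the highest counts, 2 and 851, were both those without PBS replicate 2. Testing regions with clusters in at least 3 libraries gave 3 calls at TM 4 h, where the main rule gave 29.

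Same-numbered libraries correlated between −0.080 and 0.065 in their deviations from the group means. With 3 libraries per group this cannot exclude that replicate numbers pair the samples. With the replicate block the calls among the 10 genes were 0, 3, 7, 7 and 2 in the 5 comparisons, and over all genes 43, 371, 902, 2111 and 1247. Over all regions the block gave 6 calls at TM 1 h and 72 at TM 4 h. It changed no call among member regions. Depth limits AARS1, MARS1, SARS1, TARS1 and LARS1 most, with 3 to 23 counts each in the PBS libraries. Over all genes, arsenite calls fell to 1714 without PBS replicate 1 and 1759 without PBS replicate 3, and were 2392 without the shallow PBS replicate 2.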
